A study of Mus musculus with 37 samples.

Results

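The cytosolic ribosomal protein genes were described in bulk RNA-seq of mouse tumours, each raised from 1 implanted clone of pancreatic tumour cells. They were taken as every row of the count table whose symbol starts with Rpl or Rps followed by a digit, with Rplp0, Rplp1, Rplp2 and Rpsa, leaving out 212 pseudogenes named with -ps and 10 kinases of the Rps6k family. The rule gave 90 of 39017 genes. Of these, 42 encode proteins of the large ribosomal subunit, 31 proteins of the small subunit and 3 proteins of the stalk, together 76 core genes. The other 14 rows are 6 paralogues, 5 pseudogenes by GENCODE type, 2 genes named after a ribosomal protein (Rpl7l1 and Rps19bp1), and 1 row, Rpl24, whose identifier belongs to Zbtb11 in GENCODE M21. The gene for RPL24 itself stands in the table under the symbol RPL24, outside the rule.

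Tumours labelled T cell high came from 7 clones, T cell intermediate from 2 and T cell low from 7, and 3 further tumours have no phenotype label. Every tumour grew under the skin of a C57BL/6 mouse for 3 weeks, so host, site and time were shared by all groups. Each library title ends in a tumour number. The 18 libraries numbered 2 or later are called later libraries here, the 16 numbered 1 are called no1 libraries, and 15 clones have both. Each clone is 1 line of cells, and its tumours share those cells. No source used here gives the way in which the phenotype was scored.

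Ribosomal proteins form the ribosome with ribosomal RNA. The small subunit reads the messenger RNA, the large subunit forms the peptide bond, and the stalk recruits translation factors. In mammals the transcripts of most of these genes begin with a C followed by a tract of pyrimidines, which ties their translation to mTORC1, and their transcription is among the known targets of Myc, a driver of growth in pancreatic cancer. Free RPL5 and RPL11 bind MDM2 and so connect ribosome assembly with p53.

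The bases around the annotated start are shown for some of the genes that the results return to, because that start tract is the sequence the family is known for. Promoters came from RefSeq (GRCm38.p6) and matched 65 of the 90 symbols, with 77 starts. Each line runs from 30 bases before the start to 20 bases from it, 5′ to 3′ on the gene's strand. Capitals mark the longest run of at least 5 pyrimidines that opens with C within 5 bases of the start.
Rpl28 (chr7:4792935-4792984, plus strand): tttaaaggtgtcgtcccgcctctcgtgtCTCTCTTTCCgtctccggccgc
Rps9 (chr7:3704011-3704060, plus strand): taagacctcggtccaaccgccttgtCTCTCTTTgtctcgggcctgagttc
Rpl13a (chr7:45128726-45128775, minus strand): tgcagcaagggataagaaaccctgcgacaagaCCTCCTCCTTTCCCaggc
Rps6 (chr4:86857348-86857397, minus strand): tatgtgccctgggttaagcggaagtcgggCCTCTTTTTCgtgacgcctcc
Rpl12 (chr2:32961682-32961731, plus strand): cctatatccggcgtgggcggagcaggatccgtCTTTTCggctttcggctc
Rpl10 (chrX:74270786-74270835, plus strand): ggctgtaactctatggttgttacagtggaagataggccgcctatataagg
Rps25 (chr9:44407684-44407733, plus strand): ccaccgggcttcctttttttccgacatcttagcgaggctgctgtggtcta
Rpl3l (chr17:24727796-24727845, plus strand): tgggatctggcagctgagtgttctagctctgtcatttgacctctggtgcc

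Rpl28, Rps9, Rpl13a, Rps6 and Rpl12 have such a run, and for Rpl10, Rps25 and Rpl3l none opens within 5 bases of the start. Rpl11 and Rps7, whose lines are not printed, had none there either. In the Rps25 line a pyrimidine run that opens with C lies further before the annotated start. Where transcripts start in these tumours was not tested, so the shares that follow hold for annotated starts only. A run of this kind was found at 31 of the 77 starts (40.3%), against 18.3% of 32851 starts genome-wide. The stricter form, with C as the first base and at least 4 pyrimidines after it, was at 13 of 77 (16.9%) and at 2.51% of all starts. The ETS core CCGGAAG, searched on both strands of the 300 bases, stood in 35.1% of these promoters and 8.86% of all. The Myc-type E-box CACGTG stood in 10.4% and 7.15%. A match is a description of these letters only.

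Total counts were 26.47 to 44.36 M in later libraries and 7.39 to 102.3 M in no1 libraries. Levels in CPM are counts divided by library size and scaled by TMM, which corrects library sizes for composition. Liver and heart transcripts were abundant in the no1 libraries: the 10 heart genes listed summed to 21.5 to 3251 CPM (median 120.4) in later libraries and 324.5 to 6430 CPM (median 3292) in no1 libraries, and the 10 liver genes to 46.9 to 7886 CPM (median 134.1) and 750.2 to 16180 CPM (median 8420). The later library with the highest values of both was bulk_2669c4_no2. The no1 libraries of bulk_6499c4, bulk_6419c5, bulk_2838c3, bulk_6556c4, bulk_6555c3 and bulk_6694c2 were each nearly alike to that of another clone, with a chi-squared value per gene under 10. Ductal epithelial markers (Krt19, Krt8, Epcam and 5 others) summed to 4483 to 10810 CPM in later and 3488 to 9234 CPM in no1 libraries. In bulk tissue, fewer cells of a type and less RNA per cell cannot be told apart. No source used here states how reads that match several genes were counted: 28 of the 76 core genes have no coding stretch of 50 bases that is absent from other GENCODE transcripts, so values of single genes are uncertain.

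The 76 core genes took 3.83% to 6.07% of all counts in later libraries (median 4.94%) and 3.51% to 5.96% in no1 libraries (median 4.25%). The ranges overlapped. The large subunit held a median of 2.47% in later and 2.14% in no1 libraries, the small subunit 2.08% and 1.69%, and the stalk 0.333% and 0.368%. Within clones the share was higher in the later libraries in 13 of 15 clones. The exceptions were bulk_2669c4, with 5.53%, 5.39% and 4.04% in its later libraries and 5.96% in its no1 library, and bulk_7160c5, with 3.83% in the later and 4.01% in the no1 library. The 212 -ps pseudogenes together took 0.0204% to 0.0668% (median 0.0265%) in later and 0.0193% to 0.0938% (median 0.0613%) in no1 libraries.

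**Figure D1:**
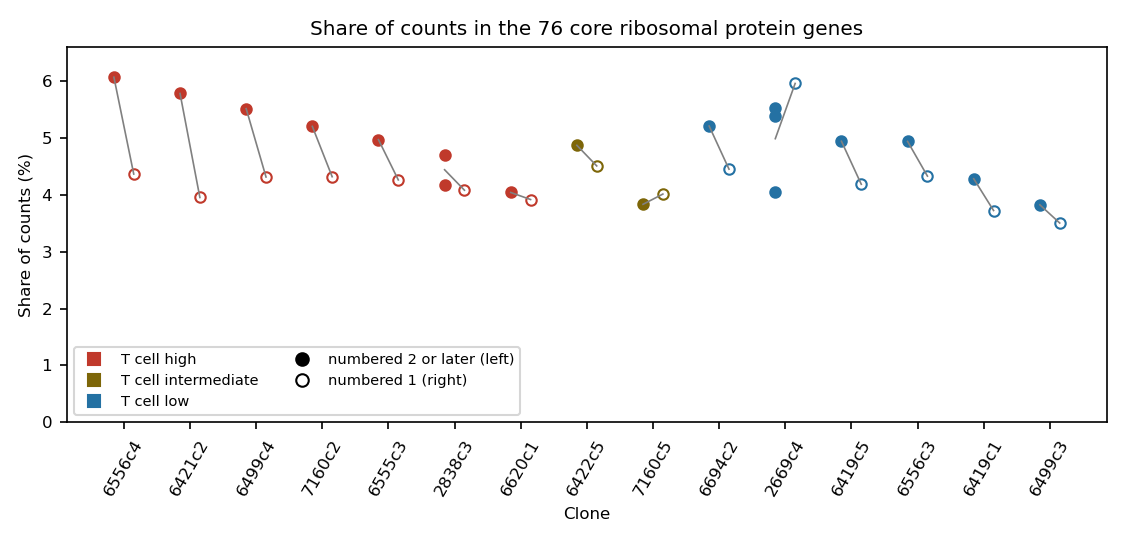
Share of counts (%) in the 76 core genes for each library of the 15 clones, ordered by phenotype and by share. Filled points are later libraries, open points no1 libraries, and the line joins their means: 13 of 15 lines fall from left to right.

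Among core genes the level varied widely. The median over later libraries was 163.3 to 2017 CPM, highest for Rplp0, the stalk base that often serves as a reference gene. Per kilobase of coding sequence the median was 1235 CPM. Rpl41, with 75 coding bases the shortest core gene, reached 11300 CPM per kilobase. The level of a gene was divided by its coding bases alone, so reads from untranslated parts raise the value most where these bases are few. Before this division Rpl41 had a median of 847.4 CPM. Rpl13a followed at 2737, Rps14 at 2645 and Rplp1 at 2630 CPM per kilobase. The lowest were Rpl15 at 381.2, Rpl23a at 384.0 and Rps6 at 451.0 CPM per kilobase. Rpl41, Rpl15, Rpl23a and Rps6 have no coding stretch of 50 bases of their own, and in Rpl13a 2.50% of such stretches are found in no other gene.

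The comparison of later with no1 libraries within clones asked how far the tumour number goes with the level of these genes. Of 87 members that passed the expression filter, 47 were called at an adjusted p under 0.05 (edgeR quasi-likelihood test, clone as block, Benjamini-Hochberg over 16557 genes). Of all genes tested, 48.3% were called, so the count of calls is near the background. Called members split into 39 higher (44.8% of those tested) and 8 lower (9.20%) in later libraries, against 22.9% higher and 25.4% lower of all genes. For the 76 core genes, 35 were higher and 6 lower, with a median log2 difference of 0.18, against -0.01 over all genes. That median was 0.30 without bulk_7160c5 and 0.27 without bulk_6556c3. Higher calls covered 18 of 42 large-subunit genes, 16 of 31 small-subunit genes and 1 of 3 stalk genes. Each of the 35 core genes called higher was higher in at least 12 of 15 clones, and 17 core genes were higher in all 15. Some of these clones have nearly alike no1 libraries, so the 15 pairs may not be independent. The clone counts and p-values take them as if they were.

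Rpl28, a large-subunit protein, had 404.2 to 979.2 CPM (median 682.2) in later libraries and 222.5 to 973.1 CPM (median 379.0) in no1 libraries. Later libraries were higher in 15 of 15 clones, and the ranges overlapped, with the highest no1 value in bulk_6422c1, which has no later library. The log2 difference was 0.89 (SE 0.09, adjusted p = 6.5e-07 by edgeR). Rps16, of the small subunit, had 377.7 to 861.5 CPM (median 614.0) in later and 237.5 to 428.9 CPM (median 367.0) in no1 libraries, a log2 difference of 0.80 (SE 0.08). Its lowest later library was bulk_2669c4_no2. Rps9 (0.67, SE 0.08) and Rpl37a (0.64, SE 0.08) were also higher in 15 of 15 clones, with adjusted p of 3.78e-06 and 4.77e-06 by edgeR. Rps9 stood at a median of 1098 CPM in later and 698.3 CPM in no1 libraries. Of the coding stretches of 50 bases in Rps9, 57.0% are found in no other gene, while Rpl28 and Rps16 have none of their own.

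Several of these proteins also have known roles outside the ribosome. Rpl11, the MDM2 binder, had 350.7 to 674.5 CPM (median 528.6) in later and 231.5 to 510.5 CPM (median 320.1) in no1 libraries, a log2 difference of 0.74 (SE 0.10, adjusted p = 1.43e-05 by edgeR). Its partner in the same particle, Rpl5, had medians of 558.8 CPM in later and 554.6 CPM in no1 libraries, a log2 difference of 0.01 (SE 0.09, adjusted p = 0.931 by edgeR). Rpl13a, known as a translational silencer in inflammation, rose by 0.67 on the log2 scale (SE 0.10), with a median of 1667 CPM in later and 1026 CPM in no1 libraries. Rps19, the gene most often mutated in human Diamond-Blackfan anaemia, rose by 0.57 (SE 0.09), with 431.3 and 315.6 CPM. Rps6, the substrate of S6 kinase, had medians of 336.9 CPM in later and 349.9 CPM in no1 libraries and a log2 difference of -0.01 (SE 0.10, adjusted p = 0.951 by edgeR). Rpsa, also known as the laminin receptor, stood at 1144 and 1056 CPM (log2 difference -0.07, SE 0.10).

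In the stalk, 1 of 3 genes was called. Rplp2 rose by 0.27 on the log2 scale (SE 0.09, adjusted p = 0.022 by edgeR) and was higher in 13 of 15 clones, with a median of 463.3 CPM in later and 395.2 CPM in no1 libraries. Rplp0 was at 2017 CPM in later and 2224 CPM in no1 libraries (log2 difference -0.10, SE 0.07), and Rplp1 at 899.5 and 946.8 CPM (-0.04, SE 0.10), neither past the threshold.

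The core genes called lower in later libraries were Rpl10, Rpl12, Rpl34, Rps25, Rps15a and Rps27a. Rpl10, an X-linked gene for a protein that joins the large subunit last, had 409.3 to 734.5 CPM (median 580.5) in later and 540.0 to 927.3 CPM (median 760.0) in no1 libraries. It was lower in 14 of 15 clones, with a log2 difference of -0.41 (SE 0.07, adjusted p = 0.000225 by edgeR). Rpl12, at the base of the stalk, had medians of 738.9 CPM in later and 903.5 CPM in no1 libraries (-0.33, SE 0.07, adjusted p = 0.000739 by edgeR). Rpl34 (-0.32, SE 0.10), Rps15a (-0.31, SE 0.11), Rps25 (-0.25, SE 0.08) and Rps27a (-0.23, SE 0.09) had later medians of 344.4, 292.0, 355.6 and 358.9 CPM and no1 medians of 371.1, 329.2, 390.7 and 383.9 CPM. The coding GC content of the 35 genes called higher had a median of 53.8%, that of the 6 called lower 49.8%, and that of the 35 not called 51.9%. The ranges overlapped (44.9% to 59.2%, 45.9% to 54.1% and 45.1% to 61.6% in the same order), and a difference in GC content was not tested.

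**Figure D2:**
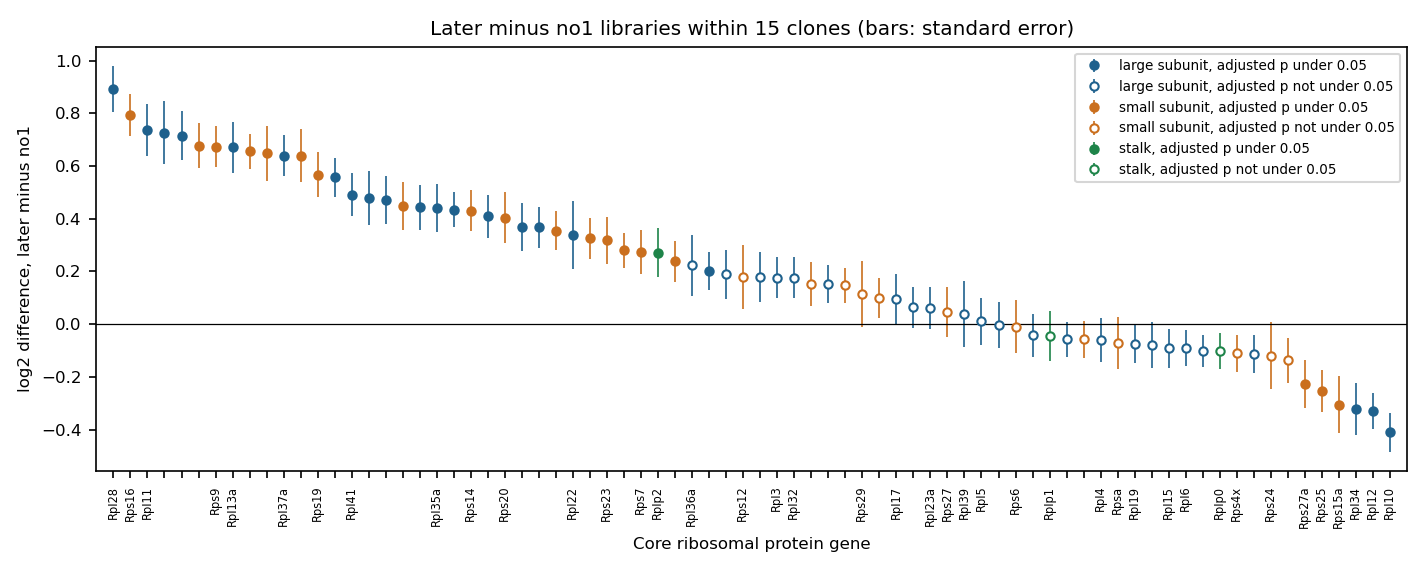
Log2 difference, later minus no1 libraries, of the 76 core genes from the fit over 15 clones, in order of size, with standard errors and with the genes named in the text labelled. Filled points passed the adjusted threshold: 35 lie above 0, led by Rpl28 at 0.89, and 6 below 0, with Rpl10 lowest at -0.41.

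Of 5 paralogues tested, 2 were called higher and 1 lower. Rpl3l, which takes the place of Rpl3 in striated muscle, had 0.0590 to 6.55 CPM (median 0.200) in later and 0.673 to 14.6 CPM (median 6.88) in no1 libraries. It was lower in 15 of 15 clones, with a log2 difference of -4.59 (SE 0.50, adjusted p = 1.69e-06 by edgeR), and its highest later value was in bulk_2669c4_no2, the later library with the most heart transcripts. Myh6, the heart myosin, fell by 13.59 on the log2 scale beside it, and 10 of 10 heart, 10 of 10 liver and 7 of 7 skeletal muscle genes tested were called lower. The part of those tissues in the values of the other members was not tested. Rpl3 had medians of 1032 CPM in later and 934.8 CPM in no1 libraries (0.18, SE 0.08, adjusted p = 0.0666 by edgeR). Rpl36al rose by 0.66 (SE 0.10), with medians of 171.7 and 97.8 CPM, while its partner Rpl36a had 203.2 and 176.9 CPM (0.22, SE 0.12, adjusted p = 0.126 by edgeR).

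Rpl39l, known from mouse testis and from cancers, was at 0.202 to 2.58 CPM (median 1.43) in later and 0.0969 to 2.21 CPM (median 0.685) in no1 libraries, a log2 difference of 1.06 (SE 0.35, adjusted p = 0.0195 by edgeR). That call was lost per library, without the clone block and without the nearly alike clones. Rpl39 had medians of 230.8 and 219.6 CPM (0.04, SE 0.12). Rpl22l1, which compensates for loss of Rpl22 in mice, had 99.2 and 75.7 CPM (0.28, SE 0.15, adjusted p = 0.115 by edgeR), and Rpl22 had 413.7 and 320.6 CPM (0.34, SE 0.13, adjusted p = 0.0383 by edgeR). Rps27l, a target of p53, had 73.2 and 63.1 CPM (0.19, SE 0.12), and Rps27 had 396.8 and 363.2 CPM (0.05, SE 0.10). Rpl10l, a testis paralogue, had 1 count in all 37 libraries together, and the pseudogenes Rps12l1 and Rps12l2 stayed at or below 0.588 CPM in later and 0.433 CPM in no1 libraries; none of these 3 passed the filter. Of the pseudogene rows, Rps3a3 had a median of 3.20 CPM in later and 10.4 CPM in no1 libraries (-1.45, SE 0.27, adjusted p = 0.000279 by edgeR). The genes named after ribosomal proteins, Rpl7l1 and Rps19bp1, were both called higher (0.48, SE 0.08, and 0.52, SE 0.09). The Zbtb11 row had medians of 25.6 CPM in later and 24.7 CPM in no1 libraries and was not called.

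Genes of the same pathway were set beside these from lists chosen for the pathway. Of all genes tested, 22.9% were called higher and 25.4% lower, 48.3% in all, and the counts below stand beside those shares. Of 30 ribosome assembly and nucleolar genes, 18 were called higher and 2 lower, with a median of 0.28; Fbl, the nucleolar methyltransferase fibrillarin, rose by 0.80, Rrs1 by 0.66 and Nop10 by 0.59. Of 19 genes for RNA polymerases I and III, 8 were higher and 3 lower, Polr1c by 0.54. Of 18 translation factors and other genes whose transcripts also begin with a pyrimidine tract, 7 were higher and 3 lower, with a median of 0.09. Among the higher, Pabpc1, the poly(A)-binding protein, rose by 0.55. The summed level of this list was higher in later libraries in only 5 of 15 clones, with medians of 19740 CPM in later and 20150 CPM in no1 libraries. Of 75 mitochondrial ribosomal protein genes tested, 39 were higher and 7 lower, a median of 0.18. Fau, which encodes a ribosomal protein fused to a ubiquitin-like protein, rose by 0.49, and Gnb2l1 (RACK1) had -0.12 (adjusted p = 0.113 by edgeR). The row RPL24 fell by 0.61 (SE 0.10). It had only 6.75 to 13.5 CPM in the summed later libraries of the 15 clones, where the lowest later median of a core gene was 163.3 CPM. How much of the RPL24 transcript this row holds was not tested. In the list of mTORC1 and S6 kinase genes, 3 were higher and 4 lower of 17, so more were called lower than higher. Larp1, which binds the pyrimidine tract, was among the 3 and rose by 0.57. The sum of this list had medians of 1461 CPM in later and 1336 CPM in no1 libraries and was higher in later libraries in 15 of 15 clones. Myc itself had 73.4 to 545.2 CPM (median 129.0) in later and 66.1 to 285.1 CPM (median 136.0) in no1 libraries, a log2 difference of -0.04 (SE 0.10, adjusted p = 0.751 by edgeR).

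Without bulk_2669c4_no2, 40 members were called higher and 8 lower, and the share of all genes called is not reported here. Without the 6 clones whose no1 libraries were nearly alike, 30 were higher and 4 lower, and 26.9% of all genes were called. The split of all genes into higher and lower in that fit is not reported here. Its median log2 difference was 0.17 for core genes, against -0.01 over all genes. In that fit Rpl12 (-0.27), Rpl22 (0.10), Rpl34 (-0.41), Rpl39l (0.34), Rplp2 (0.22) and Rps3a3 (-0.89) no longer passed, with the log2 difference in parentheses. The later libraries also held more fibroblast transcripts, with a median sum of 11670 CPM against 4543 CPM in no1 libraries, in 14 of 15 clones; their part in these differences was not tested.

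Across clones, the later libraries of each clone were summed. The core share was highest in high clone bulk_6556c4 (6.07%), then bulk_6421c2 (5.78%) and bulk_6499c4 (5.52%), also high clones. It was lowest in low clone bulk_6499c3 (3.83%), intermediate clone bulk_7160c5 (3.83%) and high clone bulk_6620c1 (4.04%). The 2 clones with more than 1 later library give the spread within a clone: 4.18% and 4.70% in bulk_2838c3, and 4.04% to 5.53% in bulk_2669c4. In bulk_2669c4 the low end is bulk_2669c4_no2, and the other later libraries had 5.39% and 5.53%. Most clones have 1 later library, so how far neighbours in the order differ was not tested. The SD of the log2 level over the 15 clones had a median of 0.28 for core genes, against 0.31 for 2217 other genes of at least 100 CPM and 0.45 for all 17973 genes tested. It was smallest for Rpl23a (0.17), Rpl12 (0.17) and Rpl19 (0.18) and widest for Rps6 (0.62), Rpl36a (0.50) and Rps25 (0.44).

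**Figure D3:**
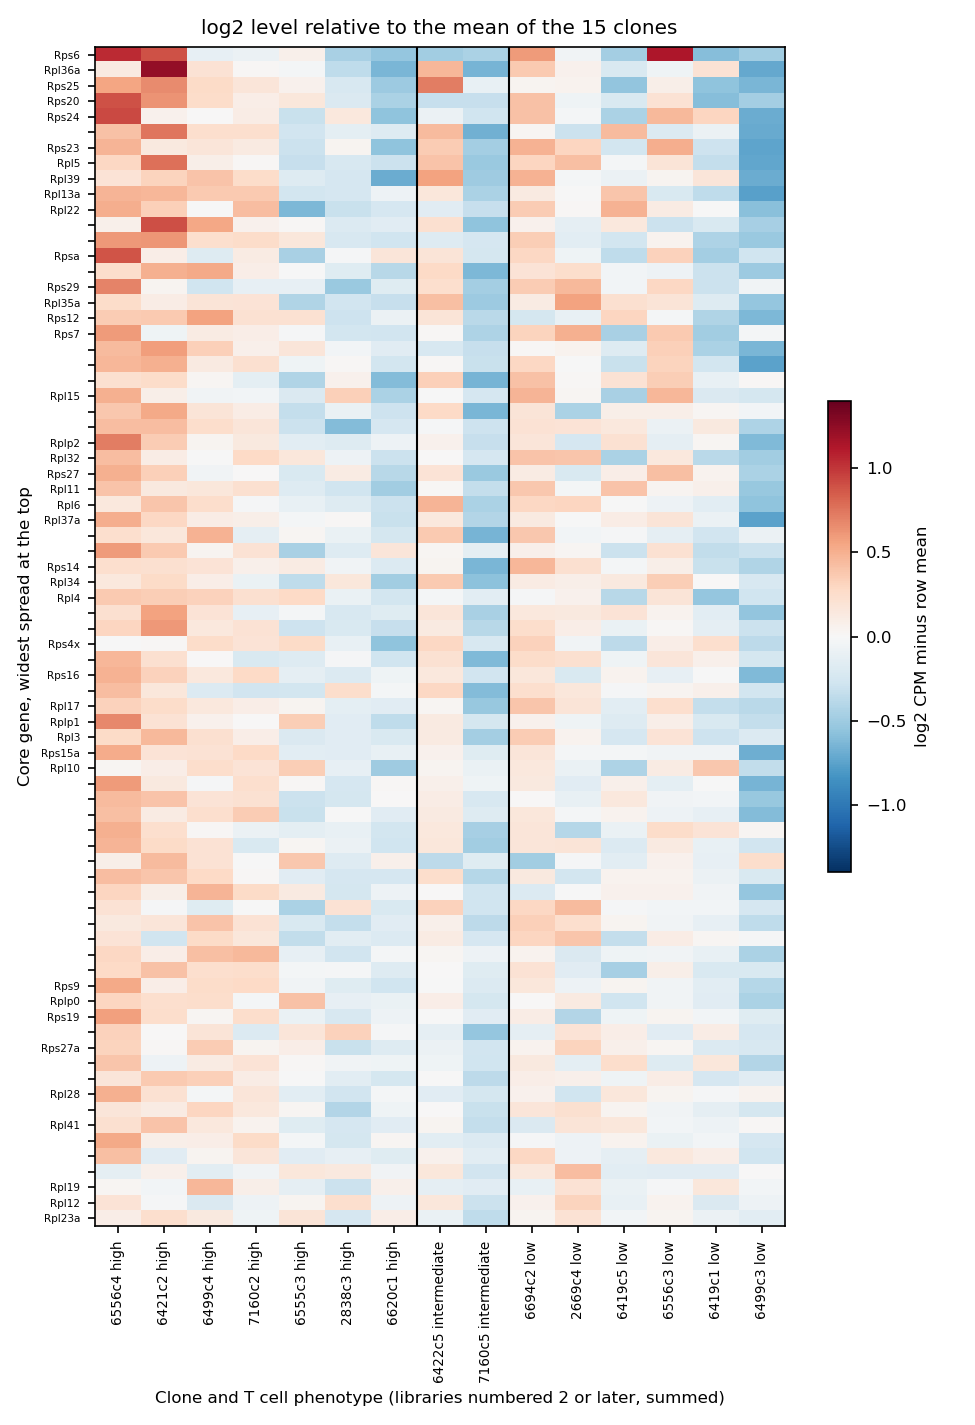
Log2 level of each core gene relative to its mean over 15 clones (later libraries summed), with the widest spread at the top, the genes named in the text labelled and clones grouped as high, intermediate and low. Columns such as bulk_6556c4 are higher for most genes, while Rps6, Rpl36a and Rps25 depart from the rest of their column.

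A test of any difference among clones over 33 libraries, with the tumour number class as a term, called 13 of 88 members, or 14.8% (edgeR quasi-likelihood F-test). Of all 19397 genes, 28.7% were called, a larger share than among the members. The 11 core genes were Rps6, Rps25, Rps7, Rpl5, Rps23, Rps14, Rpl6, Rpl15, Rpl35a, Rpl12 and Rpl32, and the other rows were Rps4y2 and the Zbtb11 row. The count was 32 with DESeq2, where the share of all genes called was again larger than that among the members. It was 7 without the filter on low counts and 5 without bulk_2669c4, for which the shares of all genes are not reported here. It was 0 with later libraries only, where 2 clones alone give a spread. Most clones entered with a single library of each class, and some no1 libraries are nearly alike across clones. Of the heart and liver genes listed, Myh6 (adjusted p = 0.00662), Serpina3k (0.00805) and Cps1 (0.00874) were also called by edgeR, and Alb (0.094) was not. The part of the no1 libraries' liver and heart content in calls and missing calls was not tested.

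Rps6 was highest in bulk_6556c3 (801.8 CPM), bulk_6556c4 (752.7), bulk_6421c2 (676.4) and bulk_6694c2 (553.7). The other 11 clones lay between 241.1 and 384.8 CPM. The no1 libraries of the same clones had 617.7 CPM in bulk_6556c3, 385.9 in bulk_6556c4, 464.5 in bulk_6421c2 and 442.8 in bulk_6694c2, and the 12 other no1 libraries 266.5 to 419.0 CPM. The gene lies on chromosome 4, 86854660 to 86857412 (GRCm38), and its adjusted p among clones was 0.00147 by edgeR. Of 7 other protein-coding genes of at least 10 CPM within 1 Mb, 5 were called among clones. Rraga, a GTPase that carries amino acid signals to mTORC1, had 183.5, 151.2, 154.7 and 111.3 CPM in those 4 clones in the same order, and 63.4 to 92.9 CPM in the other 11. Plin2, a lipid droplet protein, had 549.5, 677.3, 445.5 and 380.6 CPM, and 146.3 to 255.8 CPM in the other 11. Rps6 had the highest median correlation with such neighbours (r = 0.89 over 15 clones) of the 13 members called among clones, a gene chosen after its values were seen. For the others the median ran from 0.77 (Rpl15) and 0.73 (Rps23) down to -0.39 (Rps4y2). Called neighbours were 19 of 28 for Rps25 and 15 of 21 for Rpl35a, and 0 of 4 for Rps23, 4 of 33 for Rpl12 and 6 of 16 for Rps14. Over all 19397 genes tested among clones, 28.7% were called. The share among protein-coding genes of at least 10 CPM is not reported here, so whether called genes gather near these members was not tested.

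Rps25 had 560.0 CPM in intermediate clone bulk_6422c5 and 540.0 CPM in high clone bulk_6421c2, and 219.3 CPM in low clone bulk_6499c3 at the other end (adjusted p = 0.00189 by edgeR). Its no1 libraries had 813.0, 533.6 and 297.3 CPM in the same clones. The gene lies on chromosome 9, 44407139 to 44410427. Rps7 was highest in bulk_6556c4 (915.6 CPM) and bulk_2669c4 (857.2 CPM) and lowest in bulk_6419c1 (434.0 CPM). Rpl5 had 913.8 CPM in bulk_6421c2 and 324.0 CPM in bulk_6499c3. Rps4y2, a row that GENCODE calls a pseudogene, had 94.2 CPM in bulk_6421c2 and 66.8 CPM in bulk_6620c1, and 4.82 to 15.8 CPM in the other 13 clones. Its no1 libraries there had 64.8 and 21.5 CPM (adjusted p = 7.08e-05 by edgeR).

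Position was compared for every core gene by its 20 most alike protein-coding genes of at least 10 CPM, ranked by Pearson's r of log2 levels over the 15 clones, members left out. This measure was chosen after the values were seen, and the points share their scaling and libraries. For Rps6, 20 of 20 lay on chromosome 4, which carries 6.21% of the genes compared, led by Pole3 (r = 0.96, n = 15). Rps20, also on chromosome 4, had 19 of 20, and Rpl19 on chromosome 11 had 19. Rpl15 and Rps24 on chromosome 14 had 15 and 14, Rps23 on chromosome 13 had 15, Rps7 on chromosome 12 had 14 and Rps25 on chromosome 9 had 12. Rpl10 and Rps4x on the X chromosome had 17 and 16, where 2.76% of the genes lie. Rpl3, Rpl17, Rps9 and Rps14 had 0 of 20. The median was 5 of 20 for the 76 core genes and 5 of 20 for the other 9916 genes.

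**Figure D4:**
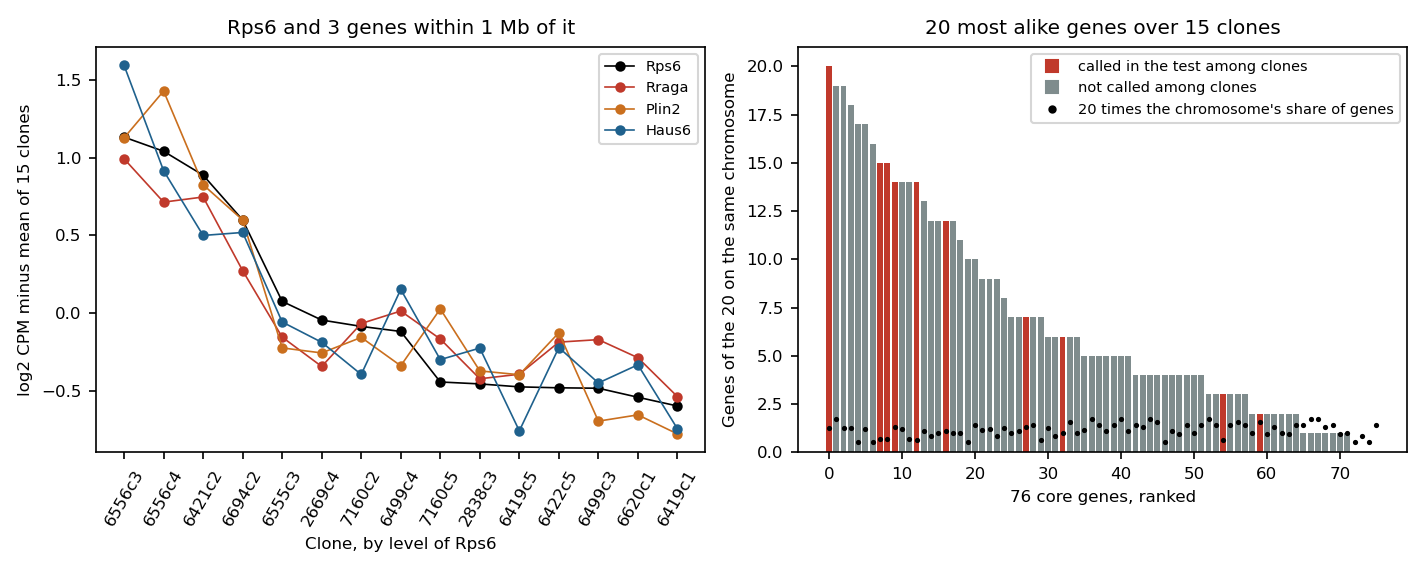
Left, log2 level of Rps6 and of 3 genes within 1 Mb of it, relative to the mean of 15 clones, with clones in order of Rps6: the same 4 clones are highest for all 4 genes. Right, number of the 20 most alike genes on the same chromosome for each core gene, from 20 (Rps6) to 0, with dots for 20 times the chromosome's share of genes.

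High against low tumours is the comparison that the series' design names. The 10 T cell markers summed to 8.16 to 46.2 CPM (median 22.1) in 8 later libraries of high clones and 4.25 to 25.2 CPM (median 11.3) in 8 of low clones, with overlap. No member of 88 was called between high and low clones, and 0% of 17973 genes were called (edgeR quasi-likelihood test, 7 against 6 clones). At an unadjusted p under 0.05 there were 3 of 88 members, against 6.65% of all genes, and DESeq2 called 0 members and 53 genes in all. The core share averaged 5.15 ± 0.72% in high clones (SD, n = 7) and 4.71 ± 0.53% in low clones (SD, n = 6), and the ranges overlapped (4.04% to 6.07% and 3.83% to 5.21%). The log2 difference, high minus low, was above 0 for 63 of 76 core genes, with a median of 0.10 against 0.001 over all genes. With no1 libraries only, the median was -0.09. It was 0.05 without bulk_6499c3, 0.06 without bulk_6421c2 or bulk_6556c4, and 0.15 without bulk_6620c1 or bulk_6694c2. Rpl4, a core protein around the exit tunnel, had 0.33 (SE 0.15, adjusted p = 0.729 by edgeR) and Rps12 0.38 (SE 0.18, adjusted p = 0.744 by edgeR). Rpl4 had 1136 to 1755 CPM in high clones and 934.0 to 1543 CPM in low clones, overlapping over most of the range. With no1 libraries only, Rpl4 had -0.17 and Rps12 -0.19. Some no1 libraries were nearly alike across the phenotypes, which limits that comparison. The chi-squared value per gene was 5.173 between high clone bulk_6499c4 and low clone bulk_6419c5. Between high clone bulk_6556c4 and low clone bulk_6694c2 it was 9.255. Rps4y2 had 1.91 (SE 0.69, adjusted p = 0.64 by edgeR), where bulk_6421c2 and bulk_6620c1 are both high clones.

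Some clones share the number before the letter c in their names, and no source used here says what that number means. The fit treats clones as independent, which such clones may not be. High clone bulk_6499c4 had a core share of 5.52% and low clone bulk_6499c3 3.83%. High clone bulk_6556c4 had 6.07% and low clone bulk_6556c3 4.94%. High clone bulk_7160c2 had 5.20% and intermediate clone bulk_7160c5 3.83%. The high clone was above its partner in each of these. A fit with the number as a block was chosen after the data were seen, and only clones sharing a number contribute to it. For high against low these are bulk_6499c4 with bulk_6499c3 and bulk_6556c4 with bulk_6556c3, so few pairs stand behind the result. In that fit 0 members and 0 genes in all were called between high and low clones. The median log2 difference of core genes there was 0.435.

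Between intermediate and low clones, 0 of 88 members and 0% of 17973 genes were called, none of the members and 6.66% of all genes at an unadjusted p under 0.05, and DESeq2 called 0 members and 25 genes. The core share was 4.87% and 3.83% in the 2 intermediate clones and 4.71 ± 0.53% in low clones (SD, n = 6). Of 76 core genes, 22 were above 0, with a median log2 difference of -0.07. Its sign depended on the clones used. The median was 0.06 with all libraries of a clone, 0.13 without bulk_7160c5 and -0.33 without bulk_6422c5, where 1 intermediate clone is left and is assumed to vary like the others. In the last of these, 198 genes but no member were called. It was -0.15 without bulk_6499c3 and -0.11 without bulk_6419c1. Rps25 had 560.0 and 316.7 CPM in the 2 intermediate clones and 219.3 to 362.2 CPM in low clones (log2 difference 0.60, SE 0.30, adjusted p = 0.773 by edgeR). Rpl23a had a log2 difference of -0.21 (SE 0.15).

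Against Myc, no member of 88 had a slope past the threshold, and 0.456% of 17972 genes did (82 genes, 0.428% with a slope above 0 and 0.0278% below 0, edgeR quasi-likelihood test of the slope over 15 clones). The slope gives the log2 change of a gene per log2 unit of Myc. It was above 0 for 71 of 76 core genes, with a median of 0.15 against -0.01 over all genes. At an unadjusted p under 0.05 there were 11 of 88 members, against 11.6% of all genes, and DESeq2 called 0 members. Rps7 had a slope of 0.39 (SE 0.12, adjusted p = 0.216 by edgeR), Rps29 0.33 (SE 0.13, adjusted p = 0.357), Rps6 0.66 (SE 0.27, adjusted p = 0.361), Rpl5 0.32 (SE 0.15, adjusted p = 0.439) and Rpl39l -0.58 (SE 0.26, adjusted p = 0.402). Of the 30 ribosome assembly and nucleolar genes, 30 had slopes above 0, with a median of 0.29, and Nop56, a core protein of box C/D particles, was called (0.51, SE 0.11, adjusted p = 0.0478 by edgeR).

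Myc had 382.9 CPM in bulk_2669c4 and 72.9 to 185.3 CPM in the other 14 clones. The core share of bulk_2669c4 was 5.04%, sixth of 15, and the 3 clones with the highest share had 156.4, 185.3 and 134.0 CPM of Myc. Within bulk_2669c4, the later libraries had 545.2, 422.5 and 222.4 CPM of Myc with core shares of 5.53%, 5.39% and 4.04%, and its no1 library had 285.1 CPM with 5.96%. Its library with 222.4 CPM was bulk_2669c4_no2, and 3 heart and 2 liver genes listed were also called with Myc. Rpl3l had the smallest p of the members, with a slope of 1.21 (SE 0.32, adjusted p = 0.126 by edgeR). Without the clone, the median slope of core genes was 0.27, and 0 genes were called. The part of liver and heart transcripts in the slopes was not tested.

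**Figure D5:**
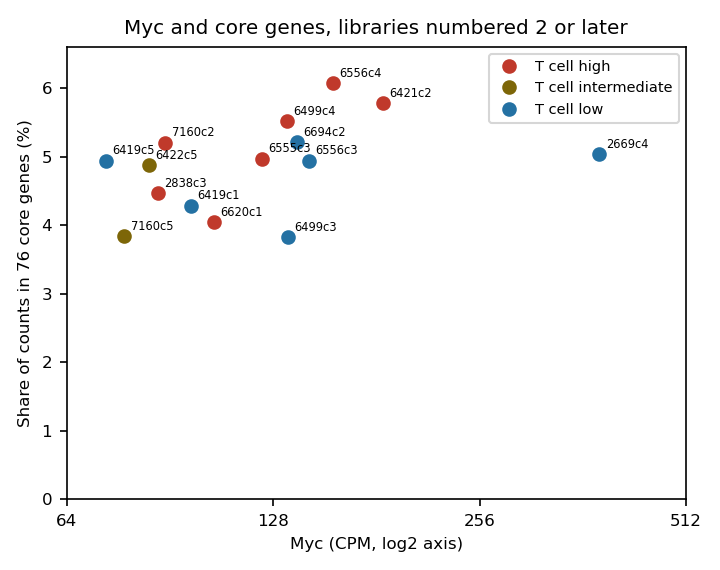
Share of counts in the 76 core genes (%) against Myc (CPM, log2 axis) for the later libraries of 15 clones, by phenotype. The clone with the most Myc, bulk_2669c4 at 382.9 CPM, has a share of 5.04%, below bulk_6556c4 at 6.07%.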

How the data were processed

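RNA was sequenced from mouse tumours, and the deposited table holds whole-number read counts per gene, not normalised, for 37 libraries. Per the submitters' processing notes, STAR, featureCounts and mm10 were used. Versions, annotation, strand and the treatment of reads matching several genes: not given in the sources used here. Values of genes with near-identical copies are therefore uncertain. The labels' protocols name Qiagen columns, an NEB kit and a NextSeq 550. Coordinates and coding sequences came from GENCODE M21 (GRCm38) and promoters from RefSeq (GRCm38.p6). Coding stretches of 50 bases were compared with those of all other genes.

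From the counts, levels were computed as TMM-scaled CPM, and differences with the edgeR 4.0.16 quasi-likelihood test (R 4.3.3, limma 3.58.1, default expression filter by group, Benjamini-Hochberg adjustment over all genes tested, threshold 0.05, two-sided). Standard errors (SE) are the absolute log2 value divided by the square root of F, and are approximate. Later libraries of a clone were summed, so that the clone was the replicate; the 15 clones with both kinds of library entered, with clone as block for later against no1. The Myc predictor was log2 CPM with a prior count of 2. The test among clones treats libraries as the unit. Tumours of 1 clone share cells, so p-values measure the spread between these clones or tumours. Clones with nearly alike no1 libraries entered the main fit as separate pairs. The 3 libraries without a phenotype entered no comparison.

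Genes are named by a rule: up to 5 called members per direction with the smallest p (3 members where none was called), a preset set of members, paralogues with their partners, and up to 3 genes per list; some genes that the rule names are not reported here. The genes and measures of the comparison by position, and further members given with values, were chosen after their values were seen. The members and lists were chosen with earlier results of these data known. DESeq2 1.42.0, other scalings, no filter, left-out clones and libraries and other groupings were tried; leaving out either intermediate clone and a block for clones whose names share a number were added after the data were seen. On simulated counts for these genes and library sizes, the later against no1 fit was tested before use. Tables and plots used Python 3.11.15, pandas 2.3.3 and matplotlib 3.10.9.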

Additional observations from a re-analysis of the deposited data

Results flagged for a closer look

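Of 56 pairs of a group and a value examined, 5 had a clone far from the rest of its group by Dixon's test, which chance flags in about 1 of 20 groups. Among high clones, Rpsa was at 1949 CPM in bulk_6556c4, with the next at 1189 CPM. Rpl3l was at 0.610 CPM in the same clone, with the next high clone at 0.286 CPM. Rpl36a was at 478.4 CPM in bulk_6421c2, with the next high clone at 234.6 CPM. Among low clones, bulk_2669c4 had 2.16 CPM of Rpl3l, with the next at 0.311 CPM. The same clone had 382.9 CPM of Myc, with the next low clone at 144.6 CPM.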

How the results depend on the processing

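For later against no1 libraries, 34 to 50 members were called in alternatives with all 15 clones or without bulk_2669c4_no2 or the nearly alike clones. With 1 clone left out, 44 (without bulk_6419c1) to 52 (without bulk_6421c2) members were called. Over all genes, 7486 of 16593 (without bulk_6419c5) to 8335 of 16562 (without bulk_7160c2) were called with 1 clone left out. Apart from the fit without the nearly alike clones, shares of all genes in the other alternatives are not reported here. Calls were lost for Rpl22 without TMM (adjusted p = 0.0515 by edgeR), without the nearly alike clones (0.601) and without bulk_2838c3, bulk_6419c5, bulk_6499c4, bulk_6694c2 or bulk_7160c2 (0.0543 to 0.0755). Rpl34 lost its call without the filter (0.0531), without the nearly alike clones (0.0537) and without bulk_6556c3, bulk_6556c4 or bulk_7160c5 (0.0754 to 0.121). Rpl39l lost it per library (0.0571), without the clone block (0.113) and without the nearly alike clones (0.533), as did Rpl12 (0.0511), Rps3a3 (0.0532) and Rplp2 (0.211) in the last of these. Calls were gained for Rpl3 (with DESeq2, per library, without the filter, and without each of 7 clones), Rpl36a (without each of 5) and Rpl22l1 (without bulk_2669c4, bulk_6419c5 or bulk_6556c3).

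For later against no1 libraries, signs turned for genes near 0: Rpl7 (main -0.003) was 0.004 with DESeq2, 0.05 without the filter, 0.011 without the clone block and 0.01 without bulk_2669c4_no2, and -0.037 to 0.101 with 1 clone left out. Rpl5 was -0.01 without TMM and -0.011 to 0.105 with 1 clone left out, Rplp1 0.01 without the filter and -0.069 to 0.084, and Rpsa -0.106 to 0.057. Rps6 was 0.044 without the filter, 0.098 without the clone block and -0.034 to 0.091 with 1 clone left out. Myc was 0.01, 0.008 and -0.083 to 0.049 in the same alternatives, and 0.135 without the nearly alike clones, where Rpl39 was -0.052 (-0.007 per library). Other signs turned for values not near 0 (high against low, Rpl4 0.33, Rps12 0.38 and Rps25 0.43; intermediate against low, Rpl23a -0.21). Between high and low clones with no1 libraries only, Rpl4 was -0.17, Rps12 -0.188, Rps25 -0.121 and Rps6 -0.143; Rps6 was also -0.131 to 0.363 with 1 clone left out. Rpl23a, intermediate against low, was 0.02 with all libraries of a clone. Some no1 libraries of high and low clones were nearly alike, which limits the comparison with no1 libraries only. The cause of the turned signs was not tested.

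Tumour numbers are shared by different clones, so they give no pairing. With the tumour number class (1 or later) as replicate block, per library, 0 members were called for high against low (77 genes in all, 38 with no replicate block) and for intermediate against low (828 and 421 genes). Libraries of 1 clone count as separate replicates in these fits, so the gene counts do not rest on independent clones. For high against low, Rps6 was -0.013 with the block and -0.01 without it. High against low, intermediate against low and the slope on Myc had 0 members called in all alternatives run, among them 2 kinds chosen after the data were seen: a block for clones that share a number (0 genes in all for both comparisons) and leaving out either intermediate clone. For intermediate against low, the core median was -0.044 with the block for shared numbers, where few pairs of clones contribute. Among clones, 32 members were called with DESeq2, where 46.7% of all genes were, 7 without the filter, 0 with later libraries only, and 5 (without bulk_2669c4) to 14 (without bulk_6499c4) with 1 clone left out. Apart from DESeq2, shares of all genes in these alternatives are not reported here. Only 2 clones have more than 1 later library, which limits what can be said of tumours within a clone.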

Other observations

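The 3 libraries without a phenotype label were left out of the comparisons. The core genes took 5.43% of counts in bulk_6883c1_no1, 5.04% in bulk_6883c4_no1 and 5.06% in bulk_7062c3_no2. Rps6 was at 326.0, 259.0 and 651.1 CPM in these libraries in the same order, and Myc at 112.3, 118.8 and 150.6 CPM.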
